A study of Mus musculus with 12 samples.

Results

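Semaphorins are ligands that cells secrete or carry on their membrane, and they were first known for steering growing axons. Of the 32285 genes in the count tables, 10 semaphorin genes were followed here by their symbols, *Sema3c*, *Sema3e*, *Sema3f*, *Sema4a*, *Sema4b*, *Sema4c*, *Sema4d*, *Sema6c*, *Sema6d* and *Sema7a*, and all 10 were found. They were measured in single cells of the glabrous hind paw epidermis of wild-type C57BL/6J mice, in 4 groups of 3 mice with 1 droplet library per mouse: males and females on a regular diet (RD), with 11% fat, and males and females on a high-fat diet (HFD), EnvigoTD88137 with 42% fat. All mice were 6 to 8 weeks old when the diet began, stayed on it for 10 weeks, were 16 to 18 weeks old at harvest and received no drug. The epidermis had been peeled off the dermis, so the cell bodies of the sensory neurons that innervate it were not sampled. The study asked whether Langerhans cells (LCs) of the epidermis take part in painful diabetic neuropathy. Its other evidence included LC depletion, skin biopsies of patients, cytokine secretion and a local CCR2 antagonist. How LCs signal to other cells was inferred from the male libraries of these data, and to nerve endings with added single-cell data of sensory ganglia. The values below are those of semaphorin ligands in the epidermis itself, first by cell class and then by diet, and the ligands of the neurons were not analysed here.

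Most semaphorins act through plexins on the receiving cell, where the bound plexin lowers integrin adhesion and reorders the actin skeleton. The Sema3 proteins are secreted and mostly need a neuropilin beside the plexin, while the Sema4 and Sema6 proteins span the membrane and Sema7a is held to it by a lipid anchor. In skin, where free nerve endings run between keratinocytes, LCs and T cells, semaphorins have been studied as cues for nerve fibers and as regulators of immune cells.

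Levels are counts of unique molecular identifiers (UMIs), each standing for 1 captured transcript, summed over the cells of a class in a mouse and scaled to 1000000 UMIs of that sum (counts per 1000000, CPM). The 12 libraries held between 134449247 and 194673581 UMIs, and 126375 of 140392 barcodes were kept as cells. Each of the 66 pairs of libraries shared between 15 and 70 barcodes, at most 0.564% of the smaller library, and libraries of the same group differed by more than sampling noise. The cells were clustered without any semaphorin, plexin or neuropilin gene, so the level of a ligand did not help to define a class. Of the 11 classes, 2 were immune, with 3512 LC-like cells (131 to 466 per mouse, *Cd207* at 2609 CPM in males and 3725 CPM in females) and 562 T cell-like cells (23 to 90 per mouse, median 2483 UMIs per cell). The names basal, cycling, Krt79 migratory and terminally differentiated stand for keratinocyte clusters that resembled the marker lists of those stages. Another 4 clusters met the suprabasal keratinocyte list, but none of its markers was among their leading genes, and they are called only by the gene that leads them (*Krt9*, *Serpinb12*, *Serpinb3a* and *Tubb3*). Of the 2362 Tubb3-led cells, 2099 (88.9%, and 71.4% to 96.4% per mouse) were among the cells with the highest doublet scores, at a median of 23923.5 UMIs per cell, whereas 3.85% to 18.8% of the cells of each other class were. The values of the Tubb3-led class thus come mostly from those cells, and how many are doublets was not tested. Without the cells of highest doublet scores, 20 of the 139 ligand means of at least 3 CPM moved by over 1.5 times, 16 down and 4 up, and those that touch a result are given beside it. A cluster of 3213 cells led by *Aox3* met a keratinocyte list with *Il34* in the same way and also stayed unnamed. Cell Ranger 6.1.0 is named in the headers of the male count tables and Cell Ranger 7.2.0 in those of the females, and the median gene was 0.21 to 0.41 higher on the log2 scale in females than in males of the same class. Sex and counting software cannot be told apart, so values are given by sex and no level is tested between the sexes.

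Before the values, the DNA before the start sites is shown for the ligands with the narrowest sets of source classes. These are *Sema6d* (LC-like and T cell-like cells), *Sema7a* (LC-like cells and a late keratinocyte stage) and *Sema3e* (Krt79 migratory cells). Each sequence is the 250 bases that end just before a RefSeq start site, taken from RefSeq on GRCm38.p6, + strand. Capitals mark matches to 4 motifs searched on both strands, AP-1 (TGANTCA), PU.1 (GAGGAA), RUNX (TGTGGT) and the GC box (GGGCGG), which did not overlap each other in these regions.
Sema6d, before the gene, chr2:124089719-124089968: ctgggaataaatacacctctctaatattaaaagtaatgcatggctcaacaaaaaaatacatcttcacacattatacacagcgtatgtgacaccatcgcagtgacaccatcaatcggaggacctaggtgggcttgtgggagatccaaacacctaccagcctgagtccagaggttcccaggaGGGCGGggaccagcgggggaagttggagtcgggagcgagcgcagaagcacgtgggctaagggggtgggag
Sema6d, within an intron, chr2:124653331-124653580: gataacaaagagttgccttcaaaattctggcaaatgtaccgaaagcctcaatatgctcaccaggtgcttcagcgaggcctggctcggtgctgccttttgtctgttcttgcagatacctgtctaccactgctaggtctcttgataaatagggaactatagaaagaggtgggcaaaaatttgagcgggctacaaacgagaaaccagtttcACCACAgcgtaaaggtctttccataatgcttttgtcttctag
Sema7a, before the gene, chr9:57939862-57940111: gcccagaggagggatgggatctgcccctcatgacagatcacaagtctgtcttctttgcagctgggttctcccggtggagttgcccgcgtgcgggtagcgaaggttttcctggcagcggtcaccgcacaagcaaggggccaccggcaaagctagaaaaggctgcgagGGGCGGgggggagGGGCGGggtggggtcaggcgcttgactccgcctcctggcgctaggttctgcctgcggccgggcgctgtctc
Sema3e, before the gene, chr5:14025026-14025275: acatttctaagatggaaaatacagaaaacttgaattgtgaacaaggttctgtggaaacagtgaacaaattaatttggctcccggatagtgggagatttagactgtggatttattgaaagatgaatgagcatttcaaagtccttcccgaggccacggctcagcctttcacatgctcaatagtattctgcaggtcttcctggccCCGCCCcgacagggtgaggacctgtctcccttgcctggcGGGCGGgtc

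The region before the *Sema6d* gene held 1 GC box, 70 bases before the start, and the intronic region held 1 RUNX match, 42 bases before its start and on the other strand. *Sema7a* carried 2 GC boxes, 84 and 71 bases before its start, and *Sema3e* carried 2, at 48 and 9 bases. Of all 32851 RefSeq promoters of that length, 32.7% held a GC box, 14.0% a RUNX match, 23.3% a PU.1 match and 6.75% an AP-1 match. No match to AP-1 or PU.1 was found in these 4 regions, which says only that those letters are not in them. G and C made up 66.4% of the *Sema7a* region, 52.4% and 45.2% of the *Sema6d* regions and 48% of the *Sema3e* region, against a median of 52.4% over all promoters. Reads of this kit come from the 3' end of transcripts and do not tell which start was used. A RefSeq promoter was matched for 9 of the 10 genes, *Sema3f* being the exception.

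*Sema6d*, a membrane ligand of the receptor *Plxna1*, was found in the immune classes and at no more than trace levels in keratinocytes (chr2:124089969-124667770, + strand, GRCm38). In LC-like cells it stood at 63.1, 73.6 and 82.1 CPM in male RD mice and at 107, 90.2 and 95.9 CPM in male HFD mice. Female RD mice had 176, 164 and 154 CPM in this class and female HFD mice 169, 164 and 175 CPM. Every mouse thus had a clear LC-like level, with a mean of 85.3 ± 15.8 CPM in males and 167 ± 8.09 CPM in females (SD, n = 6 each). Without the highest doublet scores these means were 130 and 211 CPM, and those of T cell-like cells, described next, were 55.4 and 217 CPM. T cell-like cells came next, at 47.7 ± 19.2 CPM in males and 142 ± 22.7 CPM in females (SD, n = 6 each). Male T cell-like values were 28, 44.6 and 50.3 CPM on RD and 75.1, 62 and 25.9 CPM on HFD, on 29 UMIs in all. Female T cell-like values were 109, 136 and 147 CPM on RD and 147, 179 and 134 CPM on HFD, on 253 UMIs. RD and HFD mice overlapped there in both sexes. In the other 9 classes the mean level of a sex was at most 1.31 CPM, reached in female basal cells.

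Within mice, *Sema6d* was higher in LC-like than in T cell-like cells in 11 of 12 mice, by 0.58 on the log2(CPM + 1) scale (SD of the 12 differences 0.52, adjusted p = 0.00698). The step was 0.91 in males and 0.25 in females. This and the other steps between classes were tested with a two-sided exact sign-flip permutation test over the 12 mice, adjusted over the 100 neighbouring class pairs of all 10 ligands, of which 29 passed. The step from T cell-like to basal cells, the next class, was 5.24 (SD 0.87) and was seen in 12 of 12 mice (adjusted p = 0.00305, exact test, the smallest adjusted value reached). LC transcripts were also counted in the T cell-like sums. All 8 LC markers together reached 0.329% of their LC-like level in male T cell-like cells, 21.0 to 601 CPM per mouse, and 0.139% in female ones, 29.1 to 112 CPM per mouse, with *Cd207* at 0 in males. *Sema6d* was at 55.9% and 85.0% of its LC-like level there, and the part of LC transcripts in it was not tested. The order of the immune classes missed the threshold when the cells with the highest doublet scores were removed (0.64, adjusted p = 0.0799, exact test), when LC-like cells were higher in 6 of 6 males (1.29) but in only 2 of 6 females (−0.010), or when cells with over 1% keratin UMIs were left out (0.42, adjusted p = 0.132, exact test).

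*Sema7a*, which binds *Plxnc1* and integrins with *Itgb1*, also had its highest level in LC-like cells (chr9:57940112-57962865, + strand). The LC-like values were 18.8, 31.4 and 28 CPM in male RD, 46.6, 30.3 and 33.1 CPM in male HFD, 93.4, 73.3 and 82.8 CPM in female RD, and 73.2, 101 and 95.3 CPM in female HFD mice. RD and HFD values overlapped in both sexes, around means of 31.4 ± 9.01 CPM in males and 86.4 ± 11.7 CPM in females (SD, n = 6 each), or 47.9 and 109 CPM without the highest doublet scores. Unlike *Sema6d*, it was close to nil in T cell-like cells, with 1 UMI in males and 1 in females. Terminally differentiated keratinocytes were next, at 9.82 ± 2.22 CPM in males and 4.09 ± 1.85 CPM in females (SD, n = 6 each), on 530 and 126 UMIs. There the 8 LC markers lay at 0.150% of their LC-like level in males (11.4 to 107 CPM per mouse) and 0.220% in females (17.6 to 324 CPM). *Sema7a* was at 31.3% and 4.74% of its LC-like level there, and the part of LC transcripts in it was not tested. LC-like cells exceeded this class by 2.87 (SD 1.46), and this class exceeded the Serpinb3a-led one by 1.91 (SD 0.68), each in 12 of 12 mice (adjusted p = 0.00305, exact test). The first step was 1.56 in males and 4.17 in females and the second 2.24 and 1.59. The first fell to 1.41 (adjusted p = 0.0573, exact test) when library sizes were rescaled by TMM factors, which ran from 0.236 to 0.592 in the terminally differentiated sums. Tubb3-led cells of females held 0 UMIs of *Sema7a*, which allows up to 0.145 CPM (3 UMIs of the pooled sum, counting error only).

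The LC-like cells fell into 4 subclusters, over which the ligands were unevenly spread. Besides the largest, of 2736 cells, there were 637 cells with keratinocyte transcripts, 82 cycling cells and 57 cells with *Ccr7* and *Fscn1*, markers of LCs on their way out of the epidermis. The largest met 3 markers of a chemokine-high list (mean log2 fold 1.38 against the other LC-like cells) but is called here by its size. In these Ccr7 migratory cells *Sema6d* reached 509 CPM in males (95% Poisson interval 356 to 704, 36 UMIs in 16 cells) and 550 CPM in females (467 to 644, 156 UMIs in 41 cells). The largest subcluster held 135 CPM (124 to 147) in males and 207 CPM (199 to 216) in females, so the intervals did not meet in either sex. These intervals pool the mice of a sex and cover counting error only, and no test was made.

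*Sema4a*, a membrane ligand with T cell receptors such as *Timd2*, differed in the same direction, with 155 CPM in the Ccr7 migratory cells of males (77.6 to 278, 11 UMIs) and 155 CPM in those of females (113 to 208, 44 UMIs). The largest subcluster held 15.8 CPM (12.1 to 20.2) and 20.8 CPM (18.2 to 23.7) of it. *Sema7a* was at 84.8 CPM in male (31.1 to 185, 6 UMIs) and 159 CPM in female (116 to 212) Ccr7 migratory cells, and at 52.8 CPM (45.9 to 60.5) and 113 CPM (107 to 119) in the largest subcluster. The *Sema7a* intervals overlapped widely in males and between 116 and 119 CPM in females, and the difference was not tested. Of *Sema4c*, the Ccr7 migratory cells held 70.7 CPM in males (22.9 to 165) and 24.7 CPM in females (9.93 to 50.9). These levels rest on only 5 and 7 UMIs. The largest subcluster held 3.25 CPM (1.73 to 5.57) and 5.20 CPM (3.95 to 6.72) of it, and the difference was not tested. Cycling LC-like cells held *Sema6d* at 98.8 CPM in males and 224 CPM in females, with intervals (64.5 to 145 and 178 to 277) that overlapped those of the largest subcluster.

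The LC-like cells with keratinocyte transcripts had a median of 15737 UMIs, against 5398.5 in the largest subcluster. Of them, 547 (85.9%) were among the cells with the highest doublet scores, against 96 (3.51%) of the largest subcluster and 13 of the 57 Ccr7 migratory cells. *Sema6d* was lower in them than in the largest subcluster in 12 of 12 mice (20.9 to 139 against 102 to 246 CPM), and so was *Sema7a* (5.22 to 49.9 against 33.98 to 129 CPM). The reverse held for *Sema3c* and *Sema3f* in 12 of 12 mice. *Sema3c* was at 0 to 1.72 CPM in the largest subcluster and at 18.0 to 72.5 CPM in the cells with keratinocyte transcripts, and *Sema3f* was at 0 to 1.31 and 10.8 to 26.7 CPM. Of the 448 *Sema3c* UMIs in the LC-like class, 437 lay in the cells with keratinocyte transcripts, as did 187 of the 193 *Sema3f* UMIs. In the LC-like class as a whole, the 4 keratins *Krt1*, *Krt5*, *Krt10* and *Krt14* together stood at 59.4% of their basal level in males and 32.7% in females. *Sema4a* and *Sema4b*, by contrast, were present in the largest subcluster of every mouse, at 8.23 to 27.8 and 13.6 to 38.7 CPM, and there *Sema4a* exceeded its basal level in 12 of 12 mice and *Sema4b* in 1 of 12.

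**Figure D1:**
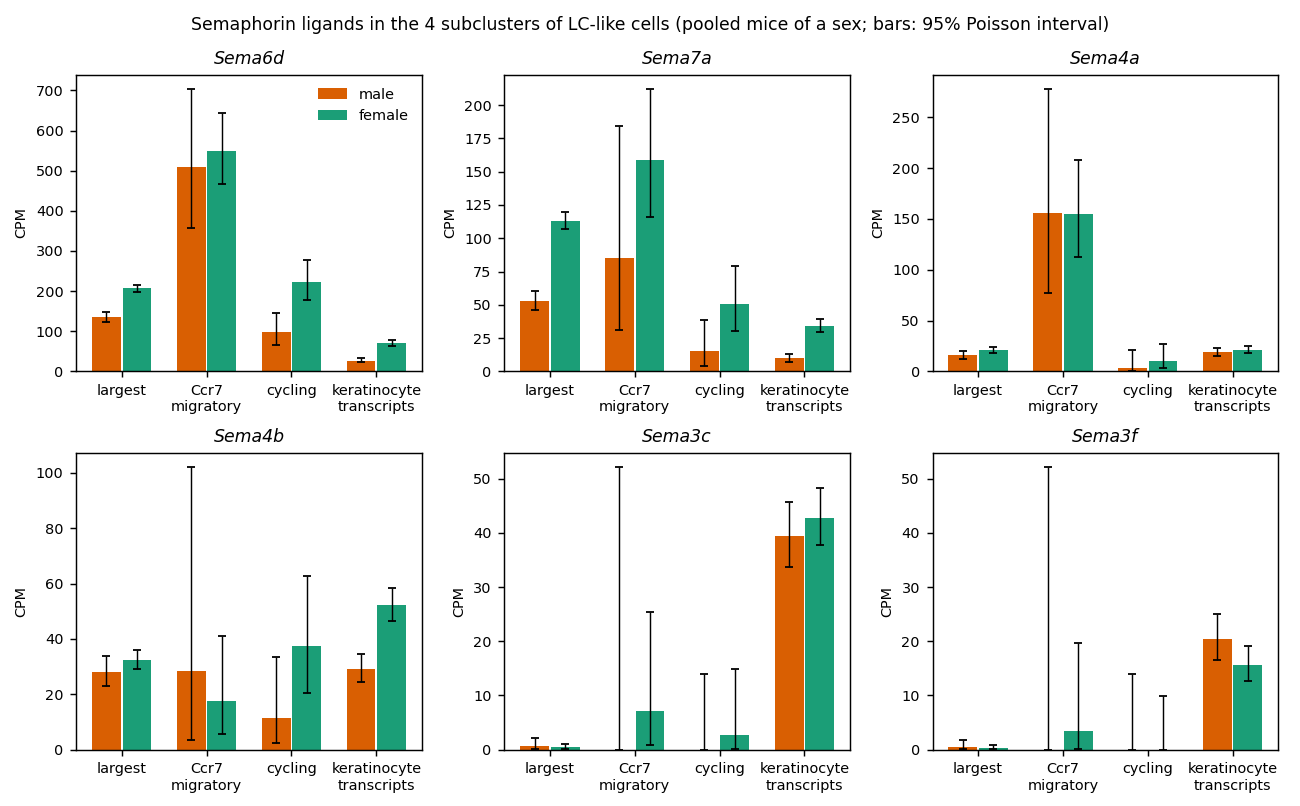
Level of 6 ligands (CPM, linear axes from 0) in the 4 subclusters of LC-like cells, with males and females apart; bars give the level over the pooled mice of a sex and lines its 95% Poisson interval. *Sema6d* and *Sema4a* were highest in the Ccr7 migratory cells (509 and 550 CPM, and 155 CPM in both sexes), while *Sema3c* and *Sema3f* were found mostly in the cells with keratinocyte transcripts.

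*Sema4d*, also called CD100 and a ligand of *Plxnb1* and *Cd72*, was highest in T cell-like cells and present in every other class (chr13:51685529-51793747, − strand). Its T cell-like values were 14, 22.3 and 25.1 CPM in male RD and 28.2, 37.2 and 25.9 CPM in male HFD mice, on 15 UMIs, and 102, 55.2 and 69.3 CPM in female RD and 75.5, 66.4 and 119 CPM in female HFD mice, on 134 UMIs. The female groups overlapped, and the male groups were set apart by less than 1 CPM on counts too low to test. Serpinb3a-led cells followed at 11.9 ± 1.28 CPM in males and 33.8 ± 5.52 CPM in females (SD, n = 6 each). The step between these classes was 1.10 (SD 0.52) and that from Serpinb3a-led to Serpinb12-led cells 0.20 (SD 0.10), each in 12 of 12 mice (adjusted p = 0.00305, exact test). With TMM factors the first step was 0.22 (adjusted p = 0.292, exact test). The lowest means were those of Krt79 migratory cells, 4.31 ± 0.681 CPM in males and 15.7 ± 1.97 CPM in females, where LC-like cells of females had 15.7 ± 3.31 CPM (SD, n = 6 each).

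Among the secreted ligands, *Sema3c*, which acts through neuropilins and *Plxnd1*, marked the basal side of the epidermis (chr5:17574281-17730268, + strand). Basal cells held 176, 147 and 175 CPM in male RD, 147, 145 and 153 CPM in male HFD, 119, 157 and 160 CPM in female RD, and 153, 138 and 135 CPM in female HFD mice. These values overlapped between diets and averaged 157 ± 14.3 CPM in males and 144 ± 15.6 CPM in females (SD, n = 6 each). The Aox3-led cells lay at 150 ± 25.8 and 177 ± 40.9 CPM and did not differ from basal cells beyond the spread (0.097, SD 0.39, higher in 7 of 12 mice, adjusted p = 0.727, exact test). From basal to cycling cells the level fell by 0.65 (SD 0.17) and from cycling to Krt79 migratory cells by 1.00 (SD 0.19), each in 12 of 12 mice (adjusted p = 0.00305, exact test). Upper keratinocytes held little of it. Serpinb12-led cells were at 7.37 ± 1.67 CPM in males and 2.27 ± 0.489 CPM in females, Serpinb3a-led cells at 6.25 ± 3.17 and 3.89 ± 1.41 CPM, and terminally differentiated cells at 9.19 ± 3.74 and 9.55 ± 3.15 CPM (SD, n = 6 each). Without the highest doublet scores the last 2 classes held still less, 2.91 and 1.5 CPM in Serpinb3a-led and 4.19 and 3.67 CPM in terminally differentiated cells.

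*Sema3e*, a secreted ligand that binds *Plxnd1* without a neuropilin, had its source in the Krt79 migratory cells, with means of at most 5.22 CPM in each other class (chr5:14025276-14256689, + strand). In the study *Sema3e* served as a marker of these cells, and it was left out of the marker list used here. Krt79 migratory cells held 24.9, 17 and 24 CPM in male RD and 23.5, 22.9 and 23.9 CPM in male HFD mice, and 72.5, 45.7 and 72.2 CPM in female RD and 54.6, 42.1 and 47.2 CPM in female HFD mice. RD and HFD values overlapped in each sex, though the highest female values were 2 RD mice. The Aox3-led cells, the next class, were at 1.5 ± 0.686 CPM in males and 5.22 ± 2.15 CPM in females (SD, n = 6 each), a step of 3.25 (SD 0.49) seen in 12 of 12 mice (adjusted p = 0.00305, exact test). Both classes carried *Krt79* itself, at 2287 and 1701 CPM in the Krt79 migratory and 2438 and 1586 CPM in the Aox3-led cells of males and females, while *Defb6*, the leading gene of the former, was at 1317 and 2004 CPM against 29.2 and 24.4 CPM. T cell-like cells held 0 *Sema3e* UMIs in both sexes, which allows up to 4.83 CPM in males and 1.72 CPM in females, and male LC-like cells held 0, which allows up to 0.340 CPM.

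*Sema3f*, a neuropilin ligand, was spread over most keratinocyte stages with no single source (chr9:107681500-107710475, − strand). Serpinb12-led cells held 26.5 ± 2.54 CPM in males and 20.6 ± 3.35 CPM in females, Krt9-led cells 23.8 ± 2.00 and 21.4 ± 2.89 CPM, Tubb3-led cells 23.6 ± 2.70 and 20.5 ± 3.99 CPM, and basal cells 21.9 ± 3.52 and 19.6 ± 2.19 CPM (SD, n = 6 each). In the 263 Tubb3-led cells left without the highest doublet scores the level was 23.6 ± 6.82 CPM in males and 17.4 ± 15.4 CPM in females (SD, n = 6 each), on 60 and 33 UMIs. The highest pair did not differ beyond the spread between mice (0.046, SD 0.18, adjusted p = 0.680, exact test). With TMM factors this step was 0.26 and passed the threshold (adjusted p = 0.00763, exact test). Terminally differentiated cells were low, at 4.72 ± 1.48 and 5.12 ± 2.24 CPM, or 2.55 and 2.99 CPM without the highest doublet scores.

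*Sema4a* had its highest mean in Serpinb3a-led cells (chr3:88435959-88461182, − strand, with the microRNA gene *Mir7011* inside one of its exons). Serpinb3a-led cells held 36, 27.9 and 34.5 CPM in male RD, 37.4, 36.6 and 39.6 CPM in male HFD, 42.1, 42.6 and 42.7 CPM in female RD, and 43.1, 56.4 and 52.2 CPM in female HFD mice. In each sex the lowest HFD mouse lay just above the highest RD mouse. Cycling cells were lowest, at 5.64 ± 1.46 CPM in males and 10.3 ± 1.45 CPM in females (SD, n = 6 each), below basal cells by 0.22 (SD 0.12) in 12 of 12 mice (adjusted p = 0.00305, exact test). T cell-like cells ranked second at 30.3 ± 18.9 CPM in males and 33.8 ± 14.2 CPM in females (SD, n = 6 each), on 17 and 55 UMIs, and Serpinb3a-led cells were above them in 9 of 12 mice (0.71, SD 1.43, adjusted p = 0.144, exact test). With TMM factors this step was 1.57 and passed the threshold (adjusted p = 0.00181, exact test). Without the highest doublet scores T cell-like cells of females had the higher mean (47.8 against 46.6 CPM) and Serpinb3a-led cells were above them in 3 of 6 males and 2 of 6 females.

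The remaining ligands were *Sema4b*, *Sema4c*, a ligand of *Plxnb2*, and *Sema6c*. *Sema4b* was counted in every class, and its mean was highest in basal cells of both sexes (chr7:80186841-80226527, + strand), at 34.7, 31.7 and 36.9 CPM in male RD, 34.6, 36 and 28.2 CPM in male HFD, 85.5, 72.8 and 77.7 CPM in female RD, and 63.9, 64.3 and 80.5 CPM in female HFD mice. Diet groups overlapped in both sexes. T cell-like cells of males had a mean of 97.1% of the basal one, at 32.7 ± 13.6 CPM on 21 UMIs, those of females 46.4%, and basal cells ranked highest in 7 of 12 mice. The 4 keratins stood at 0.522% to 1.89% of the T cell-like UMIs per mouse, 40.1% of their basal level in males and 47.1% in females, and their part in the *Sema4a*, *Sema4b* and *Sema4c* levels of that class was not tested. Without the highest doublet scores *Sema4b* was at 32.3 and 27.6 CPM there, while *Sema3c* in female T cell-like cells went from 26.0 to 1.10 CPM. Basal exceeded cycling cells by 0.32 (SD 0.10) in 12 of 12 mice, and terminally differentiated cells were lowest, 1.35 (SD 0.45) below Krt79 migratory cells in 12 of 12 (adjusted p = 0.00305 each, exact test). Their means, 4.54 CPM in males and 12.9 CPM in females, were 2.93 and 4.80 CPM without the highest doublet scores. *Sema4c* followed a similar course (chr1:36548639-36558349, − strand), from 7.54 ± 1.20 CPM in male and 11.6 ± 2.83 CPM in female basal cells to 0.839 ± 0.381 and 1.95 ± 1.21 CPM in terminally differentiated ones (SD, n = 6 each). Its T cell-like level, 14.7 ± 12.7 CPM in males and 8.49 ± 4.26 CPM in females (SD, n = 6 each), rests on 10 and 14 UMIs and was not told apart from the basal one (0.11, SD 1.32, adjusted p = 1, exact test). An exon of *Sema4c* overlaps one of *D430040D24Rik* on the opposite strand, and whether this affects its counts was not tested. *Sema6c* was near the limit of detection (chr3:95160457-95174024, + strand), with 195 UMIs in all cells of all mice and class means of at most 0.898 CPM, in female Krt79 migratory cells.

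**Figure D2:**
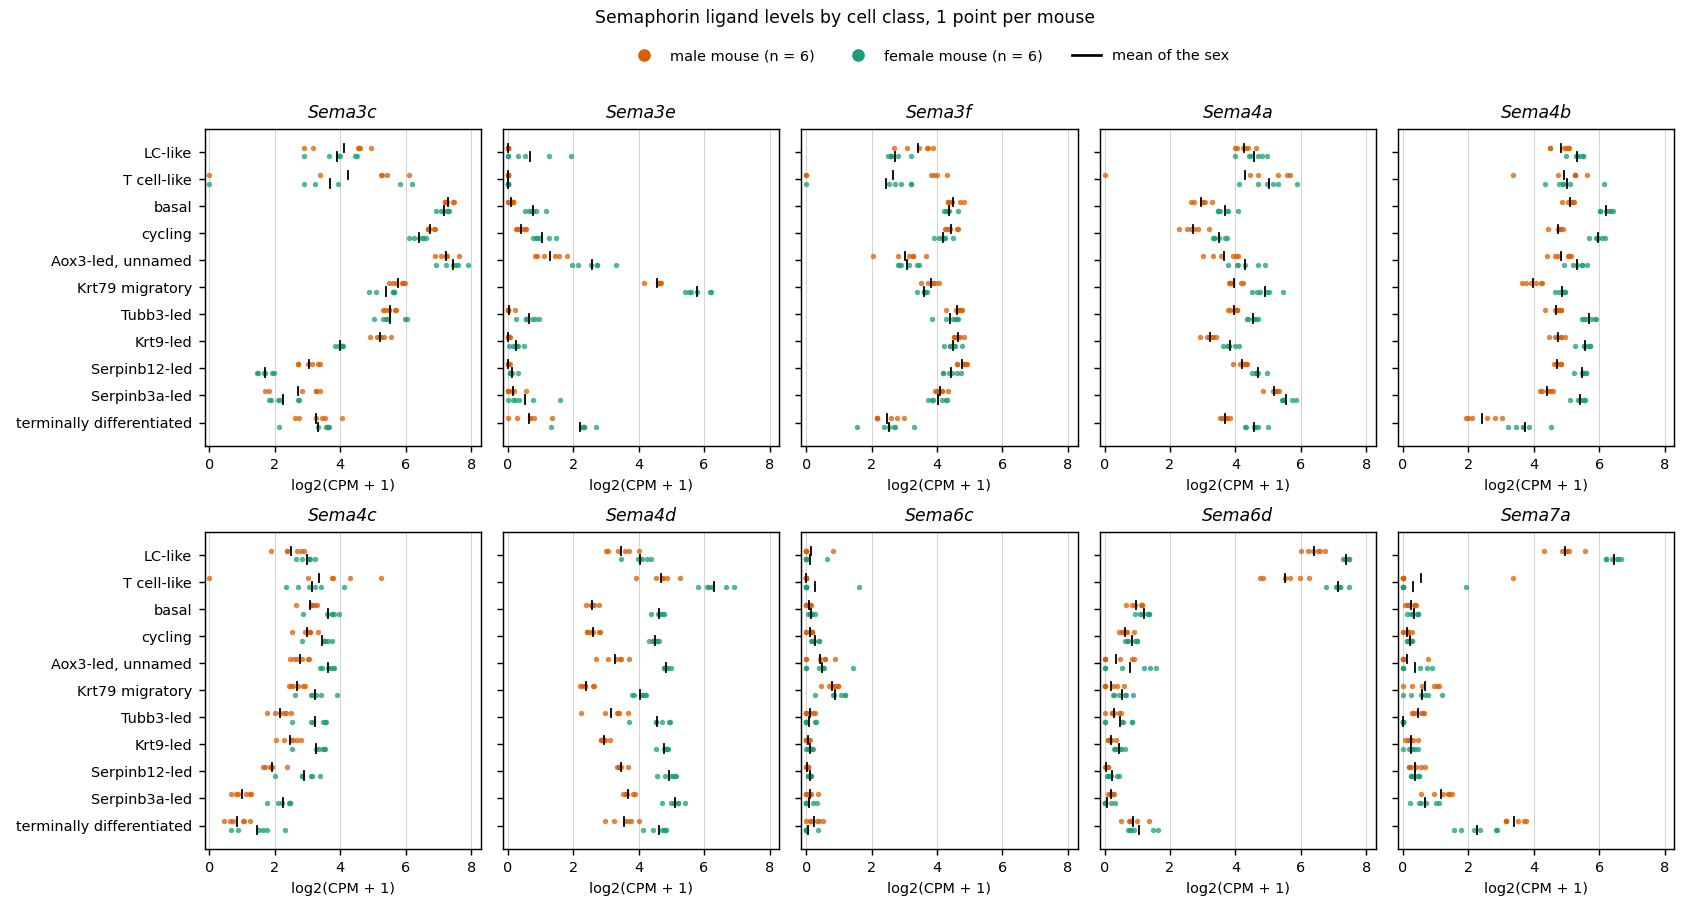
Level of each ligand on a log2(CPM + 1) axis in the 11 cell classes (rows); points are mice, males and females apart (n = 6 each), and black ticks are the mean of a sex. *Sema6d* stood out in both immune classes, *Sema7a* in LC-like cells, *Sema3e* in Krt79 migratory cells and *Sema3c* in basal and Aox3-led cells, while *Sema4b*, *Sema4c* and *Sema3f* were spread widely and *Sema6c* stayed at or below 0.898 CPM.

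The genes most alike to each ligand over the 22 class means (11 classes in each sex) were found among 12803 genes with at least 5 CPM in some class, by Pearson correlation of log2(CPM + 1). These points share libraries and pool the sexes, so the difference in level between the sexes and their counting software enters each value, and the correlations are descriptions without a test. *Sema6d* was most like *Inpp5d*, *Gpr132* and *Rasgrp4* (0.99 each), genes of blood-derived cells, and *Sema7a* was most like *Slc36a2* (0.95), *Ltc4s* (0.95) and *Ifi30* (0.94). For *Sema3c* the nearest were *Cbr2* (0.97), *Cyp4b1* (0.96) and the basal keratin *Krt14* (0.96), and for *Sema3e* they were *BC006965* (0.95), *Cntfr* (0.94) and *Sgpp2* (0.94). *Sema3f* was nearest to *Tgm3* (0.94), a transglutaminase of the cornified envelope, *Oplah* (0.92) and *Ltb4r2* (0.92). *Sema4a* was nearest to *Lyst* and *Mafk* (0.89 each), *Sema4b* to *Eloa* (0.96), *Dcun1d5* (0.94) and *Egln1* (0.94), *Sema4c* to *Extl2*, *Dcp1b* (0.97 each) and *Tgs1* (0.96), and *Sema4d* to *Kif13b*, *Sipa1l1* (0.92 each) and *Adgrg3* (0.91). Between the ligands themselves, the values are given over the 11 class means of each sex. In males the highest was 0.75 for *Sema4a* with *Sema4d* (0.36 in females) and the lowest −0.65 for *Sema3c* with *Sema4a* (−0.56 in females). In females the highest was 0.76 for *Sema4b* with *Sema4c* (0.69 in males) and the lowest −0.67 for *Sema3f* with *Sema6d* (−0.37 in males). *Sema3c* with *Sema4c* reached 0.70 in both sexes, and *Sema6d* with *Sema7a* 0.68 in males and 0.65 in females. The nearest genes of *Sema4d* were lower within a sex than over both (*Kif13b* 0.77 and 0.83, *Sipa1l1* 0.74 and 0.81, *Adgrg3* 0.78 and 0.71).

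HFD and RD mice were then compared within each sex, on UMI sums per mouse and class, with the quasi-likelihood test of edgeR and Benjamini-Hochberg adjustment over all genes of a class. A ligand was tested in a class where its counts passed the filter on low counts. In males 0 of 65 ligand and class pairs passed the threshold of 0.05, where 0.0206% of all 106604 gene and class pairs did, or 0.00285% (3 of 105319) in the classes where a ligand was tested. Unadjusted, 7 of the 65 (10.8%) were under 0.05, against 8.88% of all pairs, and DESeq2 called 0, against 0.43% of all pairs. In females 0 of 72 pairs passed, where 1.2% of all 121837 pairs did, and 12 (16.7%) were under 0.05 unadjusted, against 14.9% of all pairs. DESeq2 called 1 of the 72 (1.39%), against 1.98% of all pairs, and its own filter left 23 of the 72 without an adjusted p. The difference between the diet effects of the sexes passed for 0 of 76 pairs, where 0.138% of all 124184 pairs did, with 9 (11.8%) under 0.05 unadjusted, against 11.8% of all pairs, and 0 called by DESeq2, against 1.28% of all pairs. The median log2 fold change of the ligands was −0.084 in males, with 28 of 65 pairs above 0, and −0.035 in females, with 35 of 72 above 0, while that of all pairs was −0.0018 and 0.0018. DESeq2 left 6 of the 65 male pairs and 18 of the 76 interaction pairs without an adjusted p. *Sema6c* was tested in no class, and no ligand was tested in male T cell-like cells. The standard errors (SE) below were derived from each log2 fold change and its edgeR F statistic, and give the approximate precision of the estimate. In some pairs below all 3 HFD mice lay above or below all 3 RD mice. The same held for pairs not described below, such as *Sema3f* and *Sema4c* in terminally differentiated cells of males, both lower on HFD. How often this occurs over all genes is not given here.

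*Sema6d* in LC-like cells had a log2 fold change of 0.40 ± 0.15 (SE) in males, with all 3 HFD mice (90.2 to 107 CPM) above all 3 RD mice (63.1 to 82.1 CPM), and an adjusted p of 0.856 (edgeR). Over the alternatives its adjusted p lay between 0.469 and 1. The 4 keratins made up 2.03%, 1.68% and 1.44% of the LC-like UMIs in male RD mice and 1.42%, 1.504% and 1.65% in male HFD mice, and their part in the difference was not tested. Of the 8825559 male LC-like UMIs, 4497693 came from the cells with keratinocyte transcripts. *Sema6d* was at 26.9 CPM in those cells, and their part in the difference was not tested as such. Without the highest doublet scores, 0 of 56 male ligand pairs were called. With cells over 1% keratin UMIs left out of the immune classes, 0 of 4 were called there. In females the log2 fold change of *Sema6d* in LC-like cells was 0.032 ± 0.098 (adjusted p = 0.958, edgeR), and the difference between the sexes was 0.36 ± 0.17 (adjusted p = 0.917, edgeR). *Sema7a* in LC-like cells changed by 0.45 ± 0.24 in males and 0.092 ± 0.15 in females (log2, SE, adjusted p = 0.863 and 0.906, edgeR), within the spread of the mice.

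In female T cell-like cells, *Sema6d* changed by 0.20 ± 0.24 and *Sema4d* by 0.26 ± 0.31 (log2, SE, adjusted p = 0.969 for both, edgeR). *Sema3c* in basal cells gave −0.11 ± 0.085 in males and −0.036 ± 0.11 in females (adjusted p = 0.850 and 0.915, edgeR). None of these differences exceeded the spread between mice. *Sema4b* in basal cells gave −0.015 ± 0.11 and −0.18 ± 0.097 (adjusted p = 0.992 and 0.400, edgeR), and *Sema4a* in Serpinb3a-led cells 0.25 ± 0.11 and 0.20 ± 0.10 (adjusted p = 0.388 and 0.347, edgeR).

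**Figure D3:**
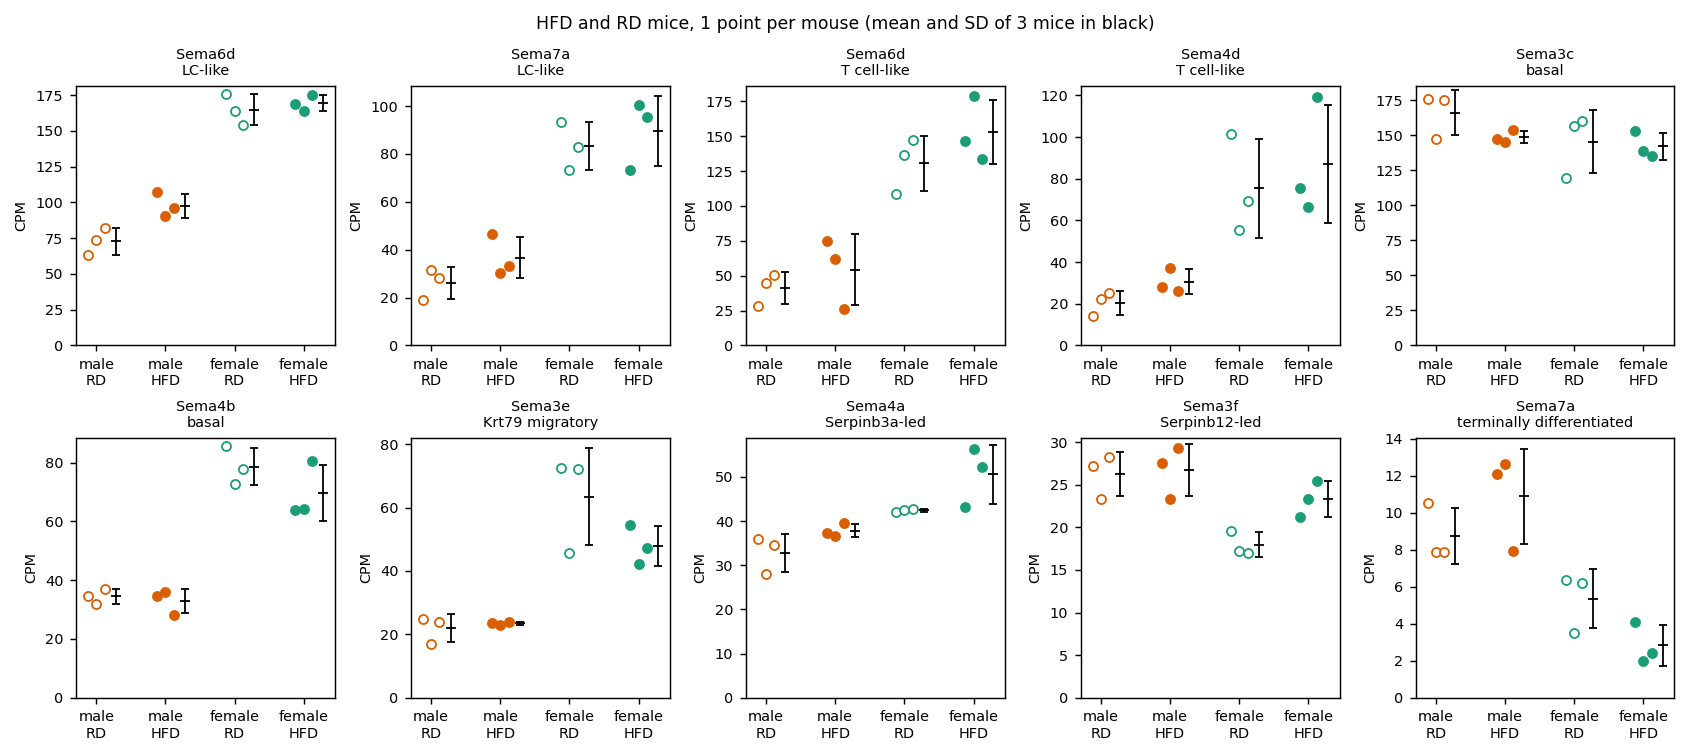
Level (CPM, linear axes from 0) of ligands in named classes for each mouse of the 4 groups; open points are RD and filled points HFD, and the black mark is the mean with its SD (n = 3). In males *Sema6d* in LC-like cells was at 63.1 to 82.1 CPM on RD and 90.2 to 107 CPM on HFD, while in females the groups overlapped.

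The lowest adjusted p of any pair was that of *Sema3f* in Serpinb12-led cells of females. These mice held 19.6, 17.2 and 17 CPM on RD and 21.2, 23.3 and 25.4 CPM on HFD, so the groups did not overlap, and the log2 fold change was 0.35 ± 0.090 (SE, adjusted p = 0.0510, edgeR). It was under the threshold with DESeq2 (adjusted p = 0.0442), with RLE size factors (0.0495), without the filter (0.0152) and without female HFD replicate 1 (0.0459) or 2 (0.0400), with log2 fold changes between 0.33 and 0.40. It was not under it in the other 7 alternatives, up to an adjusted p of 0.172 without female RD replicate 3, and its log2 fold change was lowest, 0.27, without female HFD replicate 3. In that class 4.8% of all genes were called in females. Males held 27.2, 23.4 and 28.3 CPM on RD and 27.6, 23.4 and 29.4 CPM on HFD, which overlapped (0.060 ± 0.098, adjusted p = 0.960, edgeR).

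*Sema7a* in terminally differentiated cells differed most between the sexes in its diet effect. Male RD mice held 10.5, 7.89 and 7.86 CPM and male HFD mice 12.1, 12.6 and 7.93 CPM, while female RD mice held 6.35, 3.52 and 6.19 CPM and female HFD mice 4.10, 1.98 and 2.42 CPM. The log2 fold change was 0.59 ± 0.24 in males (SE, adjusted p = 0.153, edgeR) and −0.97 ± 0.37 in females (adjusted p = 0.564, edgeR), and the groups overlapped in both sexes. The difference between these effects was 1.58 ± 0.46 (adjusted p = 0.0726, edgeR), and passed the threshold without the filter on low counts (0.00427) and without female RD replicate 2 (0.0194). This class joins 2 clusters that the sexes filled unequally, one of 3719 cells with 3236 from males and one of 1303 cells with 0 from males, and the female *Sema7a* level was 6.70 CPM on RD and 4.16 CPM on HFD in the former and 5.07 and 2.51 CPM in the latter. The part of this difference in cells in the interaction was not tested.

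*Sema3e* in Krt79 migratory cells had a log2 fold change of −0.43 ± 0.16 in females (SE, adjusted p = 0.244, edgeR; 0.00582 without the filter) and 0.13 ± 0.16 in males (adjusted p = 0.985, edgeR). *Sema4d* in Serpinb12-led cells of females changed by −0.26 ± 0.11 (adjusted p = 0.184, edgeR; 0.0324 without the filter and 0.0245 without female HFD replicate 2), with 30.9, 34 and 32 CPM on RD and 26.7, 33.5 and 22.8 CPM on HFD. *Sema3c* in LC-like cells of females changed by −0.79 ± 0.27 (adjusted p = 0.421, edgeR; 0.0474 without the filter), from 20.8, 22 and 15 CPM to 14.4, 11.5 and 6.35 CPM. Without the highest doublet scores the mean of these 6 females was 1.13 CPM, on 13 UMIs. The keratins made up 0.517%, 0.740% and 0.600% of the LC-like UMIs in female RD mice and 0.805%, 0.338% and 0.787% in female HFD mice, and nearly all *Sema3c* in this class came from the cells with keratinocyte transcripts, as above. With the filter and all mice, none of these differences passed the threshold.

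In males the lowest adjusted p was that of *Sema3c* in terminally differentiated cells, which held 9.84, 15.4 and 10.5 CPM on RD and 5.17, 8.49 and 5.70 CPM on HFD. The groups did not overlap, and the log2 fold change was −0.58 ± 0.20 (SE, adjusted p = 0.123, edgeR; 0.0595 to 0.688 over the alternatives). The male *Sema3c* UMIs of this class fell from 482 to 163 without the highest doublet scores, with a log2 fold change of −0.52 ± 0.33 (adjusted p = 0.688, edgeR). *Sema3c* in Serpinb3a-led cells of males, at 8.64, 9.42 and 6.13 CPM on RD and 2.56, 2.25 and 8.48 CPM on HFD, was called only without the filter on low counts. The groups overlapped through male HFD replicate 3, and the log2 fold change was −0.82 ± 0.43 (SE, adjusted p = 0.450, edgeR; 0.0481 without the filter), between −1.69 and −0.49 when 1 mouse was left out. The largest of these, −1.69, was that without male HFD replicate 3 (adjusted p = 0.0621, edgeR).

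**Figure D4:**
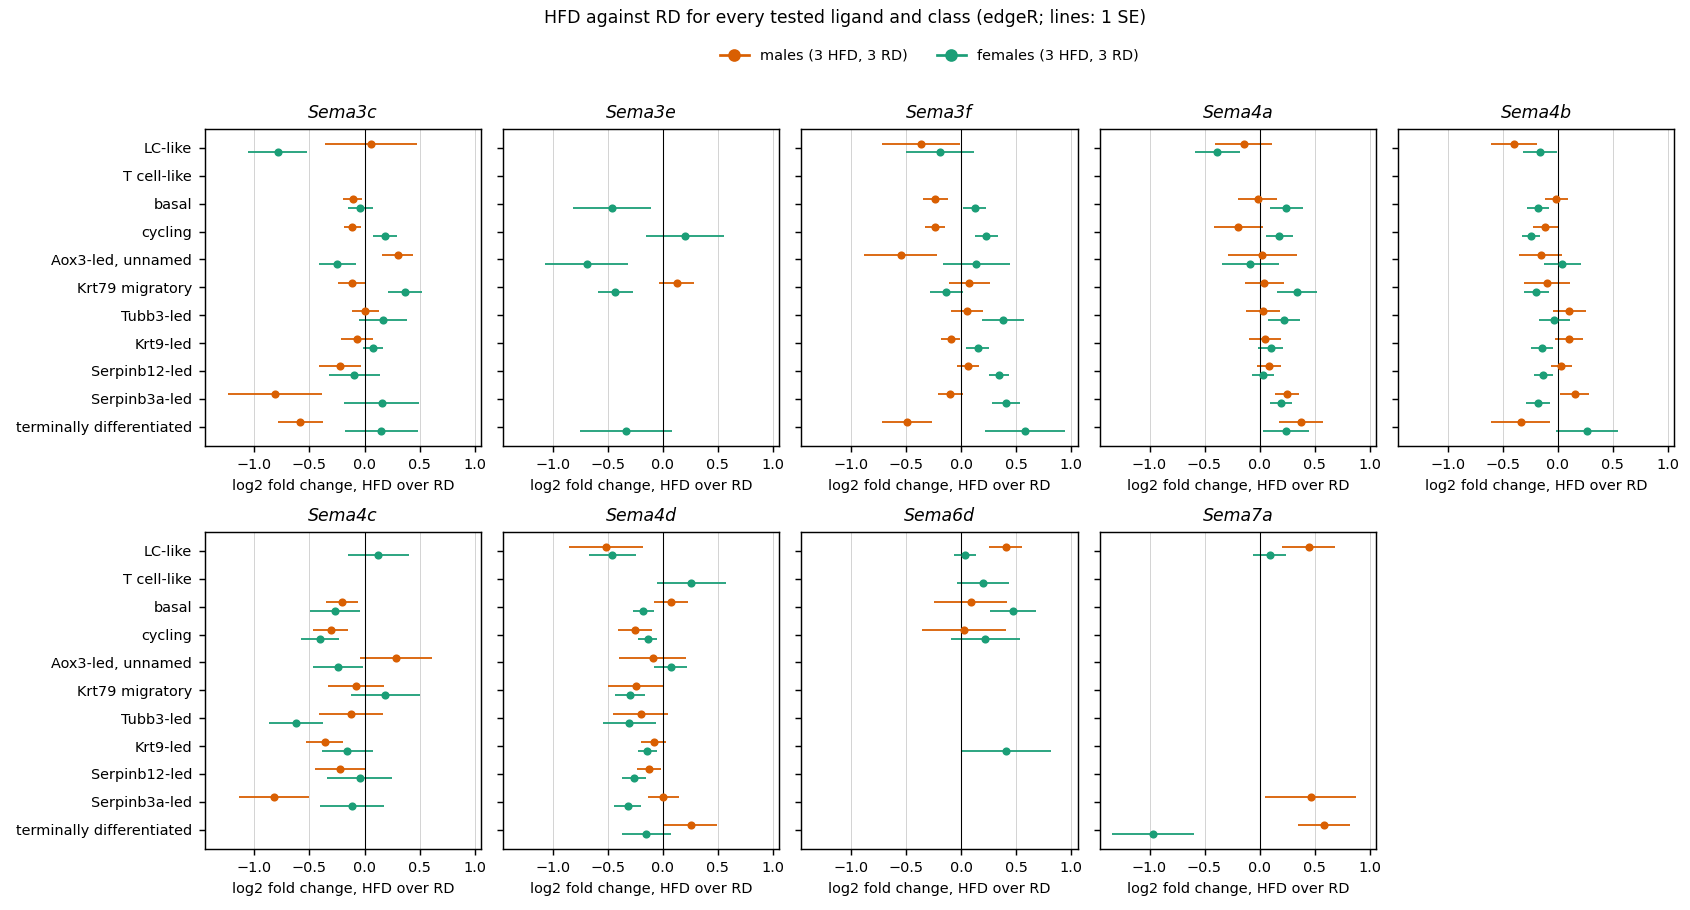
Log2 fold change of HFD over RD for the 9 tested ligands in each class (rows), males and females apart. Points are the edgeR estimates and lines 1 SE, derived from the F statistic. Estimates lay on both sides of 0, and none of the 65 male and 72 female pairs passed the threshold of 0.05.

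The other genes of the pathway came from lists of other semaphorins (10 genes), plexins, neuropilins and other receptors (19 genes) and intracellular plexin signalling (18 genes). At least 5 CPM in some class was reached by 5 of the 10 other semaphorins, 14 of the 19 receptors and 18 of the 18 signalling genes. LC-like cells held the highest mean in both sexes for 1 of the 5 semaphorins (*Sema4f*), 4 of the 14 receptors (*Plxna1*, *Plxnc1*, *Cd72* and *Tyrobp*) and 4 of the 18 signalling genes (*Dpysl2*, *Mical2*, *Arhgef11* and *Rac1*). The share over all genes is not given here. *Plxna1* and *Plxnc1*, receptors of *Sema6d* and *Sema7a*, had their highest class in common with these ligands. *Plxnb2* was highest in Serpinb3a-led and *Plxnb1* in basal cells of both sexes. *Itgb1*, a part of integrins that bind *Sema7a*, was highest in basal cells, at 187 CPM in males and 383 CPM in females. By diet, edgeR called 0 of 28 male and 0 of 37 female pairs of the other semaphorins (3 and 6 under 0.05 unadjusted, 0 and 1 by DESeq2), 0 of 99 and 0 of 108 of the receptors (10 and 13 unadjusted, 0 and 1 by DESeq2) and 0 of 146 and 0 of 165 of the signalling genes (22 and 16 unadjusted, 1 and 3 by DESeq2). As shares, the unadjusted counts were 10.7% and 16.2% of the semaphorin pairs, 10.1% and 12% of the receptor pairs and 15.1% and 9.7% of the signalling pairs in males and females, against 8.88% and 14.9% of all pairs. The DESeq2 counts were at most 0.685% of the pairs of a list in males and 2.7% in females, against 0.43% and 1.98% of all pairs. The interaction of diet and sex passed for 0 of 39, 0 of 110 and 0 of 165 pairs of these lists (3, 15 and 19 unadjusted, 1, 1 and 4 by DESeq2). Those were 7.69%, 13.6% and 11.5% unadjusted, against 11.8% of all pairs, and 2.56%, 0.909% and 2.42% by DESeq2, against 1.28% of all pairs. DESeq2 called *Sema3d* in basal cells (log2 fold change 0.57), *Met*, the hepatocyte growth factor receptor, in Krt79 migratory cells (0.76), *Dpysl3* there (−0.40), *Arhgef12* in Serpinb12-led cells (−0.22) and *Rras* in Krt9-led cells (0.47) of females, and *Dpysl3* in Serpinb3a-led cells of males (0.89). For the interaction, as the male minus the female effect, it called *Sema6a* (1.25), *Itgb1* (−1.07) and *Gsk3b* (0.73) in terminally differentiated cells, and *Arhgef12* (0.38), *Dpysl3* (0.91) and *Gsk3b* (0.38) in Serpinb3a-led cells. The adjusted p of edgeR for these 12 pairs lay between 0.0505 and 0.243. DESeq2 left between 4 and 36 pairs of a list without an adjusted p in each comparison. The median log2 fold changes of these lists lay between −0.056 and 0.080 in either sex.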

How the data were processed

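The authors deposited, for each of 12 mice, the UMI counts of every gene in every barcode called as a cell, as whole numbers without normalization. Reads had been counted on GRCm38 (mm10) with Cell Ranger 6.1.0 in males and 7.2.0 in females according to the file headers, whereas the submitters' processing notes name Cell Ranger 7.2.0 and Seurat 5.0.0, and whether intronic reads were counted is not given in the sources used here. As in the study's methods, a barcode was kept as a cell if it had 200 genes or more (500 in females), no more than 6000, and a mitochondrial share of UMIs up to 5%. They were clustered over both sexes with leidenalg 0.10.2 on 2000 variable genes, scaled within each sex, with 10 principal components and 20 neighbours. Clusters were named from marker lists where at least 3 markers were in at least 0.1 of the cells at a log2 fold of at least 0.5. Doublets were removed only in an alternative.

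UMIs were summed per mouse and class, with at least 10 cells in every mouse, and tested with edgeR 4.0.16 (quasi-likelihood, TMM, filterByExpr) at an adjusted p of 0.05, in males, in females and for their interaction. DESeq2 1.42.0 was an alternative. The mouse was the replicate here, and cells were not counted as replicates. The study compared RD and HFD by a Wilcoxon rank sum test. Steps between classes were tested by exact sign-flips over 4096 arrangements. Both kinds of test were tried on simulated data with 200 changed genes. All 10 ligands are named, as are the 3 most similar genes of each ligand, of which 1 is not reported here. List genes were to be given with values only if called by edgeR, which none was, and those named as called by DESeq2 or as highest in LC-like cells, and *Itgb1*, were chosen after their values were seen. The ligands, lists and tests were chosen with earlier results of these data known. Gene positions are those of GRCm38, promoters those of RefSeq. The chi-square between libraries of a group, 17.1 to 147 per degree of freedom, was far above sampling noise. Replicate numbers were not used to pair the mice in the main fits.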

Additional observations from a re-analysis of the deposited data

How the results depend on the processing

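The steps from the highest to the next class depended most on scaling. With TMM-adjusted library sizes the step was −0.091 for *Sema3c*, a change of sign, 0.26 for *Sema3f*, 1.57 for *Sema4a* and 0.32 for *Sema6c*, which passed the threshold, and 0.22 for *Sema4d* and 1.41 for *Sema7a*, which no longer did. Removing the highest doublet scores gave 0.64 for *Sema6d*, and the limit of 1% keratin UMIs gave 0.42, neither past the threshold, while *Sema6c* passed it under that limit at its own value of 0.40, only its adjusted p having moved. The causes were not tested. Leaving out 1 mouse at a time moved the step to between −0.17 (without male HFD replicate 3) and 0.30 for *Sema4c* and to between 0.36 and 0.47 for *Sema6c*, which passed the threshold without male HFD replicate 2, female RD replicate 2 or female HFD replicate 1. *Sema3e* (3.20 to 3.34), *Sema4b* (0.30 to 0.34), *Sema4d* (1.00 to 1.17), *Sema6d* (0.46 to 0.64) and *Sema7a* (2.66 to 3.06) kept their side of the threshold without any 1 mouse.

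The number of ligand and class pairs called by diet was 0 in all 3 comparisons. Without the filter on low counts it was 4 for the females, 1 for the males and 1 for the interaction, and for the females it was 1 with DESeq2 and 1 with RLE size factors. Leaving out 1 mouse gave 0 to 2 pairs in females (1 without HFD replicate 1, 2 without HFD replicate 2), 0 to 1 for the interaction (1 without female RD replicate 2) and 0 in males. With a replicate block 0 pairs were called in each comparison. The deviations of same-numbered RD and HFD mice from their group means had correlations of −0.21 to 0.18 in basal and LC-like cells. All were positive in male basal cells (0.042, 0.110 and 0.079). With 3 mice per group these values cannot decide whether the numbers pair the mice. Counts over all gene and class pairs moved more, from 22 to between 7 and 2316 in males, from 1457 to between 69 and 5423 in females and from 171 to between 16 and 3263 for the interaction over the alternatives that kept at least 8 classes, with the highest without the filter. The keratin limit left 2 classes, in which edgeR called 3 of 6920, 39 of 12312 and 0 of 11049 pairs (567, 1315 and 756 under 0.05 unadjusted).

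Signs turned for small, uncalled fold changes. Without 1 mouse the values ran from −0.013 to 0.26 for *Sema3e* in Krt79 migratory cells of males, from −0.0048 to 0.14 for *Sema3f* in Serpinb12-led cells of males, from −0.10 to 0.090 for *Sema4b* in basal cells of males, and from −0.010 to 0.085 (*Sema6d*) and −0.0093 to 0.24 (*Sema7a*) in LC-like cells of females. The interaction ran from −0.028 to 0.17 for *Sema4a* in Serpinb3a-led cells and from −0.22 to 0.30 for *Sema4c* in basal cells. Clustering the sexes apart gave 0.027 for *Sema4b* in basal cells of males, removing doublets gave −0.093 for the interaction of *Sema4d* in T cell-like cells and −0.017 for *Sema6d* in LC-like cells of females, and the keratin limit gave −0.036 for the interaction of *Sema7a* in LC-like cells. T cell-like sums of 23 to 90 cells limit what could be seen there.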
